A study of Homo sapiens with 6 samples.

Results

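Collagens and laminins are structural proteins of the extracellular matrix, and the 53 genes followed here encode their chains. They were all genes of the array annotation whose whole symbol was COL, a number, A and a number, or LAMA, LAMB or LAMC and a digit, namely 43 collagens and 10 laminins among 18132 genes, read by 144 of 49293 probe sets. The cells were A375, an established human melanoma line. In the knockdown group UBE2S, which part of the labels spell UEB2S, was depleted with a short hairpin RNA carried by a lentivirus, and the control group is labelled only as control A375 cells, without word of the vector it may have carried. Each group held 3 replicates called biological, with 1 Affymetrix array each. How many hairpins or infected clones lay behind them is not stated, so p-values measure the spread between these cultures alone.

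Collagens are trimers of alpha chains wound into a triple helix. Fibrillar collagens make the fibres of connective tissue, type IV makes the sheet of basement membranes, type VI makes beaded filaments around cells, and fibril-associated collagens coat the fibres. Laminins are cross-shaped trimers of an alpha, a beta and a gamma chain, which start the assembly of a basement membrane and bind integrins on cells. Melanoma cells cross basement membranes when they invade, and they can secrete both families themselves.

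Promoter sequence is shown for 4 members on which the results turn. LAMB2 had the largest rise of all members (chr3:49133001-49133300, minus strand) and LAMC1 is the gamma chain that also rose (chr1:183023170-183023469, plus strand). LAMB3 is the laminin that fell (chr1:209652376-209652675, minus strand), and COL4A2 (chr13:110307034-110307333, plus strand) shares 226 bases of its window with COL4A1, which is read from the opposite strand. The windows come from RefSeq on GRCh38.p14 and run 5′ to 3′ along the gene from 250 bases before its start to 50 after it. Capitals mark matches, on either strand, to the 5 motifs named after the sequences. No match overlaps another.
LAMB2: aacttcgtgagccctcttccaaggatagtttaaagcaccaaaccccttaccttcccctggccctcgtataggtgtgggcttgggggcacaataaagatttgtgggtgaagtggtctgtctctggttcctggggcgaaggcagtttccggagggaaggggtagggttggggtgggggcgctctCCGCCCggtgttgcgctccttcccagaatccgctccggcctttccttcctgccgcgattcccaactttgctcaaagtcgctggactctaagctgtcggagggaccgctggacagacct
LAMC1: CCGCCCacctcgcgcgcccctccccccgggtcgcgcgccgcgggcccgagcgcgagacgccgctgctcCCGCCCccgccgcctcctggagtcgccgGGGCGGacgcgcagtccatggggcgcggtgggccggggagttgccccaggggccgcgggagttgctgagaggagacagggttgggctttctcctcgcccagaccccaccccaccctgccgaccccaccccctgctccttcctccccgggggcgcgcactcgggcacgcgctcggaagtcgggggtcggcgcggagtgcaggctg
LAMB3: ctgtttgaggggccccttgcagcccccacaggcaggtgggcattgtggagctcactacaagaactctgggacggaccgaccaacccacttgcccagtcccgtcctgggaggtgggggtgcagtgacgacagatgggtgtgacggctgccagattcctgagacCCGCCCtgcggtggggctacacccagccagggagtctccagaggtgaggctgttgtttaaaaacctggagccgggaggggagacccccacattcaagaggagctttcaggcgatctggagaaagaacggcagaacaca
COL4A2: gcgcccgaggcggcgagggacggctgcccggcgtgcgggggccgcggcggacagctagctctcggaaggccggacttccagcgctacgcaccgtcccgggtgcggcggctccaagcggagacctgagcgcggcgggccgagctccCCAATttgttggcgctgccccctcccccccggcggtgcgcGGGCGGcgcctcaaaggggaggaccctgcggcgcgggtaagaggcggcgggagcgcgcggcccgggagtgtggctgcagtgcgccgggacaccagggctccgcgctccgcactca

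The GC box, GGGCGG, occurred once or more in 23 of the 39 members with a window, against 45.0% of all 35116 windows of the table. Each member gave 1 window, while all 35116 were counted and outnumber the 18132 genes, so the 2 sets are not alike. The GC box was in 12 of the 15 windows of members that rose, and LAMB2, LAMB3 and COL4A2 had 1 match each and LAMC1 had 3. COL5A2, COL6A1, COL9A3 and COL22A1 also rose but had no window. The median share of G and C was 66.0% in members' windows and 58.7% in all windows. CCAAT was in 10 of the 39 and in 1 of the 15, against 34.6% of all windows, and COL4A2 holds the only match among the 4 shown. TATAAA was in 4 of the 39 and in 3 of the 15, against 11.5%. The AP-1 site, TGANTCA (7.7% of all windows), and the core of the interferon-stimulated response element (GAAA, any 2 bases, GAAA; 3.6%) were in none of the 39, which says only that these letters are not in these windows. All of this describes letters, not bound sites.

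The deposited values were log2 expression with each probe set centred on the median of the 6 arrays. A value of 0 is thus the middle of the arrays, and no value gives an absolute level. A gene was read as the mean of its probe sets. Changes are knockdown minus control on the log2 scale with the moderated standard error of limma, and a gene is called changed at an adjusted p under 0.05 over all 18132 genes. UBE2S, a ubiquitin-conjugating enzyme of the anaphase-promoting complex, stood at -1.13, -1.05 and -1.01 in knockdown arrays, against 1.06, 1.01 and 1.01 in control arrays. Its change was -2.09 (SE 0.043, adjusted p 9.23e-08 in limma), which left 23.5% of the control signal and matches the labels of all 6 arrays.

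Laminin transcripts moved in both directions. LAMB2, LAMA5, LAMC1, LAMB1 and LAMA4 rose, LAMB3 fell, and 4 of the 10 laminin genes did not pass the test. Among all genes 40.1% were called, 21.4% higher and 18.6% lower. The median change of the 10 laminins was 0.24, beside -0.0038 for all genes. In bulk RNA, fewer cells of a type and less RNA per cell cannot be told apart.

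LAMB2, a beta chain of the laminins of muscle, nerve and kidney basement membranes, stood at 0.55, 0.55 and 0.58 in knockdown arrays, against -0.65, -0.55 and -0.68 in control arrays. Every knockdown array lay above every control array. Its mean was 0.56 ± 0.017 in knockdown cells and -0.62 ± 0.070 in control cells (SD, n = 3 each), a rise of 1.18 (SE 0.044, adjusted p 8.75e-07 in limma), or 2.27-fold. It was the only member to change at least 2-fold, as 1.06% of all genes did. LAMB2 is read by 1 probe set, of the highest of 3 signal classes described below. Leaving out single arrays gave rises of 1.16 to 1.22.

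LAMB1, the more widespread beta chain, stood at 0.24, 0.21 and 0.17 in knockdown arrays, against -0.17, -0.18 and -0.21 in control arrays. The groups did not overlap, and LAMB1 rose by 0.39 (SE 0.037, adjusted p 7.62e-05 in limma). Both of its probe sets rose, by 0.27 and 0.51.

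LAMC1, the gamma chain of most laminin trimers, stood at 0.20, 0.21 and 0.28 in knockdown arrays, against -0.20, -0.16 and -0.26 in control arrays. It rose by 0.44 (SE 0.042, adjusted p 8.61e-05 in limma) without overlap. Of its 5 probe sets, the 4 of the highest class rose, by 0.30 to 0.71, and 1 of the middle class at 0.072 did not pass. LAMC3, the other gamma chain measured, was at 0.12 (SE 0.063) with overlapping groups and an adjusted p of 0.178 in limma.

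LAMA5, the alpha chain of many adult basement membranes, stood at 0.26, 0.20 and 0.26 in knockdown arrays, against -0.24, -0.23 and -0.34 in control arrays. It rose by 0.51 (SE 0.042, adjusted p 4.03e-05 in limma), without overlap. That value joins a middle-class probe set that rose by 0.85 and a lowest-class probe set at 0.17 that did not pass.
LAMA4, an alpha chain of vessel and mesenchymal basement membranes, stood at 0.16, 0.15 and 0.21 in knockdown arrays, against -0.18, -0.17 and -0.19 in control arrays. It rose by 0.35 (SE 0.035, adjusted p 0.000103 in limma), again without overlap. Its 3 probe sets of the highest class rose, by 0.36, 0.54 and 0.62, and its middle-class probe set at -0.10 did not pass. The chains that rose thus included 2 of 4 alpha chains, 2 of 4 beta chains and 1 of 2 gamma chains, beside 21.4% of all genes. Of the 6 laminins with a highest-class probe set 4 rose and 1 fell, and 57.4% of all such genes were called in either direction.

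LAMB3, the beta chain of the epithelial laminin that anchors the epidermis, was lower in knockdown cells. It stood at -0.23, -0.23 and -0.13 in knockdown arrays, against 0.19, 0.23 and 0.15 in control arrays, and the groups did not overlap. The change was -0.39 (SE 0.044, adjusted p 0.000194 in limma), or 76.2% of the control signal, and both probe sets fell (-0.42 and -0.36). The alpha and gamma partners of LAMB3 were not analysed here.
LAMA1, an alpha chain of embryonic basement membranes, was at -0.19 (SE 0.080) and did not pass, with groups that did not overlap and an adjusted p of 0.0942 in limma. Relative to the array spike-ins it was called lower (-0.36 with hybridization and -0.29 with poly-A spike-ins), as were 50.7% and 34.7% of all genes. LAMA2, the alpha chain of muscle, was at 0.031 and LAMB4 at -0.032, and neither passed.

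**Figure D1:**
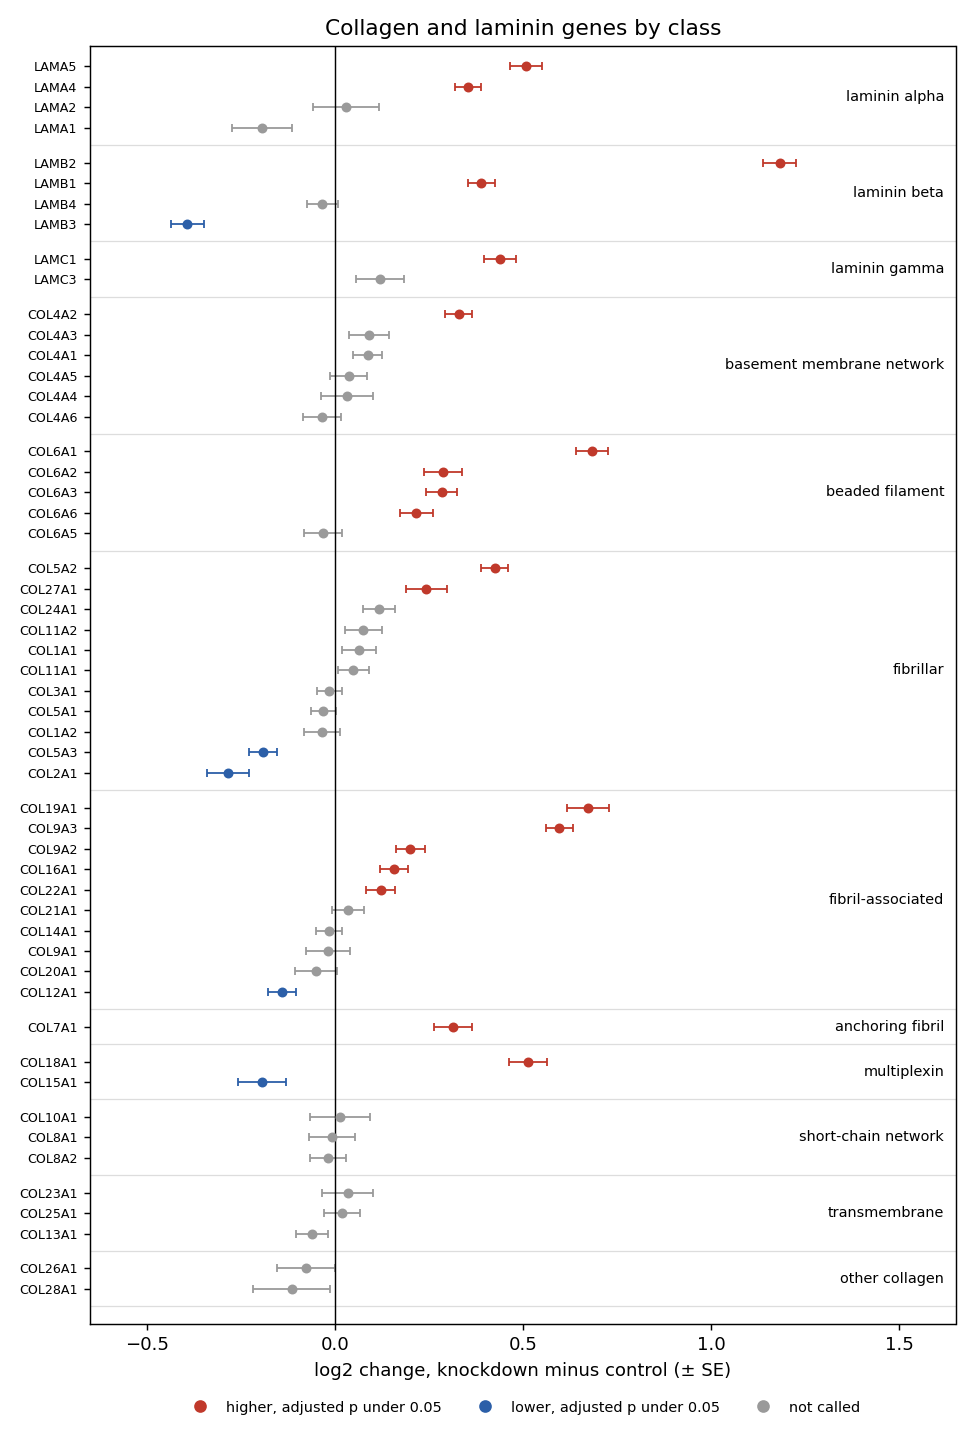
Log2 change (knockdown minus control, points) with its standard error (bars) for each of the 53 members, by class, with red for called higher, blue for called lower and grey for not called. LAMB2 at 1.18 lies apart from the other members, and LAMB3 at -0.39 is the lowest.

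Of the 43 collagens 14 rose, 4 fell and 25 did not pass. That is 41.9% called, near the 40.1% of all genes, so the count called in either direction does not set collagens apart. By direction, the 14 higher and 4 lower of 43 stand beside 21.4% of all genes called higher and 18.6% lower. The median change of the collagens was 0.035. The groups did not overlap for 27 of the 53 members, beside 50.0% of all genes. Members that did not pass lay between -0.19 and 0.12. Signal classes were inferred from the rounding of the values, which can misplace single probe sets. Before centring, the highest class should lie between 8 and 16 on the log2 scale, the middle between 4 and 8 and the lowest between 2 and 4. Of 23 background control probe sets 13 fell in the lowest class. Members had 31 probe sets of the highest, 62 of the middle and 51 of the lowest class. Of the highest-class probe sets 22 were called higher and 1 lower, of the middle class 15 and 5, and of the lowest class 4 and 2. Among all probe sets, pooled over the classes, 36.9% were called, and the share within each class was not taken. Several probe sets can read 1 gene, so these are not counts of genes. Of the 18 members with a highest-class probe set 9 rose and 2 fell (57.4% of all such genes were called), and of the other 35 members 10 rose and 3 fell (29.0% of all such genes).

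Type VI collagen rose in 4 of its 5 measured chains, beside 21.4% of all genes called higher. COL6A1, one of the main type VI chains, stood at 0.34, 0.30 and 0.33 in knockdown arrays, against -0.32, -0.43 and -0.34 in control arrays. The groups were far apart, and the rise of 0.68 (SE 0.042, adjusted p 8.45e-06 in limma), or 1.61-fold, was the largest among the collagens. All 6 of its probe sets rose, by 0.35 to 0.98.
COL6A2, its neighbour on chromosome 21 and partner in the trimer, stood at 0.10, 0.14 and 0.18 in knockdown arrays, against -0.20, -0.19 and -0.049 in control arrays. It rose by 0.29 (SE 0.050, adjusted p 0.00210 in limma) without overlap. Of its 4 probe sets only 1 was called, at 0.87, and the others were at -0.091, 0.10 and 0.27. The called probe set has the suffix _x_at, which the array gives to sets with probes shared between transcripts, and without _s_at and _x_at sets COL6A2 was at 0.087 with an adjusted p of 0.350.
COL6A3, the long chain that completes the trimer, stood at 0.12, 0.13 and 0.23 in knockdown arrays, against -0.13, -0.15 and -0.099 in control arrays, with all knockdown arrays above all control arrays. It rose by 0.28 (SE 0.042, adjusted p 0.000866 in limma). Of its probe sets 2 rose, by 0.45 and 0.48, and 1 at -0.079 did not pass. COL6A6, a chain related to COL6A3, rose by 0.22 (adjusted p 0.00489 in limma) on 1 lowest-class probe set, and COL6A5, a further related chain, was at -0.032 and did not pass. Relative to the hybridization spike-ins COL6A1 was still called, at 0.52, while COL6A2 (0.12), COL6A3 (0.12) and COL6A6 (0.049) did not pass.

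**Figure D2:**
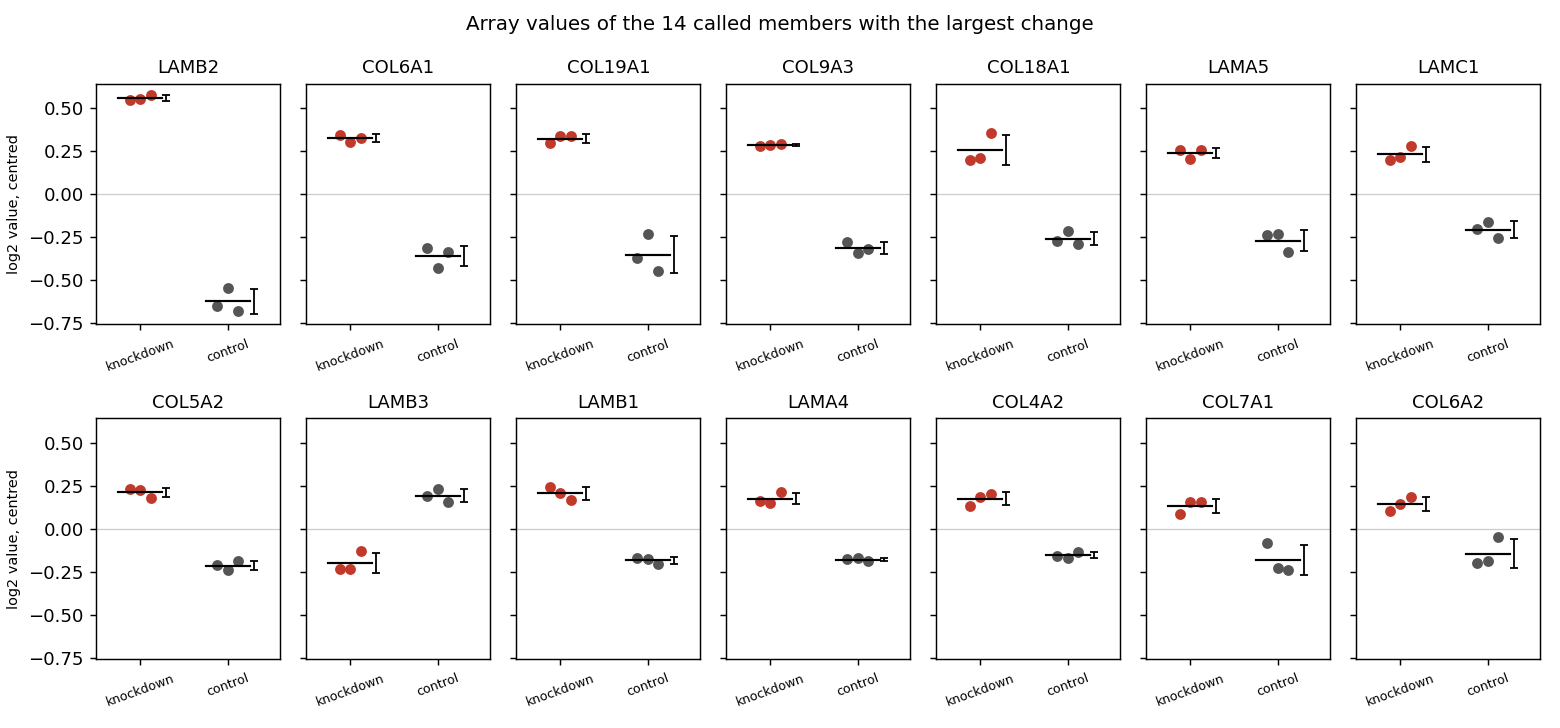
Centred log2 values of the 14 called members with the largest change, each point 1 array, knockdown left of control, with a line at the mean and the SD as the bar beside it (n = 3 each). No member shown has overlapping groups, and LAMB3 is the only one that is lower in knockdown arrays.

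Type IV collagen changed in 1 of 6 chains, beside 40.1% of all genes called. COL4A2 stood at 0.13, 0.19 and 0.20 in knockdown arrays, against -0.16, -0.17 and -0.14 in control arrays. It rose by 0.33 (SE 0.036, adjusted p 0.000187 in limma) without overlap, and all 3 of its probe sets, of the highest class, rose, by 0.21 to 0.41.
COL4A1, whose product joins that of COL4A2 in the same trimer and whose start lies 127 bases from that of COL4A2, stood at 0.065, 0.010 and 0.053 in knockdown arrays, against 0.0046, -0.052 and -0.086 in control arrays. The groups did not overlap, and the change of 0.087 (SE 0.039, adjusted p 0.119 in limma) did not pass. Its 3 probe sets disagreed in direction, with 1 of the highest class that rose by 0.53, another of that class at 0.013 and 1 of the middle class that fell (-0.28). Read from the 2 highest-class probe sets COL4A1 was called higher, at 0.27 with an adjusted p of 6.81e-05 in limma, and relative to the spike-ins its gene mean was at -0.080 and -0.010, not called. COL4A3, COL4A4, COL4A5 and COL4A6, chains of kidney and other specialised basement membranes, lay between -0.034 and 0.092, and none passed, with unadjusted p-values also above 0.05.

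Of the 11 fibrillar collagens 2 rose, 2 fell and 7 did not pass, beside 21.4% of all genes called higher and 18.6% lower. COL1A1, the main chain of type I collagen, stood at -0.0036, 0.092 and -0.012 in knockdown arrays, against -0.052, -0.084 and 0.019 in control arrays. COL1A2, its partner chain, stood at -0.035, -0.018 and 0.014 in knockdown arrays, against -0.059, 0.020 and 0.10 in control arrays. Groups overlapped for both, and the changes were 0.065 (SE 0.046, adjusted p 0.315 in limma) for COL1A1 and -0.035 (SE 0.048, adjusted p 0.622 in limma) for COL1A2.
COL3A1, the type III collagen of vessel walls and skin, stood at -0.017, -0.0086 and -0.0031 in knockdown arrays, against 0.010, 0.021 and -0.018 in control arrays. The groups overlapped at a change of -0.014 (SE 0.033, adjusted p 0.788 in limma). Relative to the spike-ins COL3A1 was called lower (-0.18 with hybridization and -0.11 with poly-A spike-ins), as were 50.7% and 34.7% of all genes. Its most variable probe set, a lowest-class set with the suffix _x_at, was called higher (0.21). None of the 16 probe sets of COL1A1, COL1A2 and COL3A1 was of the highest class, and apart from that one and 1 lowest-class probe set of COL1A2 (-0.23) none was called.

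COL5A2, a chain of type V collagen, which starts type I fibrils, lies next to COL3A1 on chromosome 2. It stood at 0.23, 0.22 and 0.18 in knockdown arrays, against -0.21, -0.24 and -0.19 in control arrays, without overlap. It rose by 0.43 (SE 0.036, adjusted p 4.33e-05 in limma), or 1.34-fold. Of its 6 probe sets the 3 of the highest class rose, by 0.55 to 0.76, as did 1 of the middle class (0.43). The other middle-class probe set (0.23) and the lowest-class one (-0.058) did not pass. COL5A1, the chain with which COL5A2 assembles, stood at 0.0029, -0.048 and -0.020 in knockdown arrays, against 0.0080, -0.0021 and 0.019 in control arrays. The groups overlapped at -0.030 (SE 0.034, adjusted p 0.545 in limma), and none of its 4 probe sets passed. COL5A3, the other type V chain, fell (-0.19, SE 0.037, adjusted p 0.00364 in limma).
COL27A1, a fibrillar collagen of cartilage, rose by 0.24 (adjusted p 0.00765), a call lost relative to the hybridization spike-ins (0.076). COL2A1, the main collagen of cartilage, fell (-0.28, adjusted p 0.00376) on 1 probe set of the lowest class. COL24A1 was at 0.12 with no overlap and an adjusted p of 0.0571, and COL11A1 (0.049) and COL11A2 (0.076) did not pass.

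**Figure D3:**
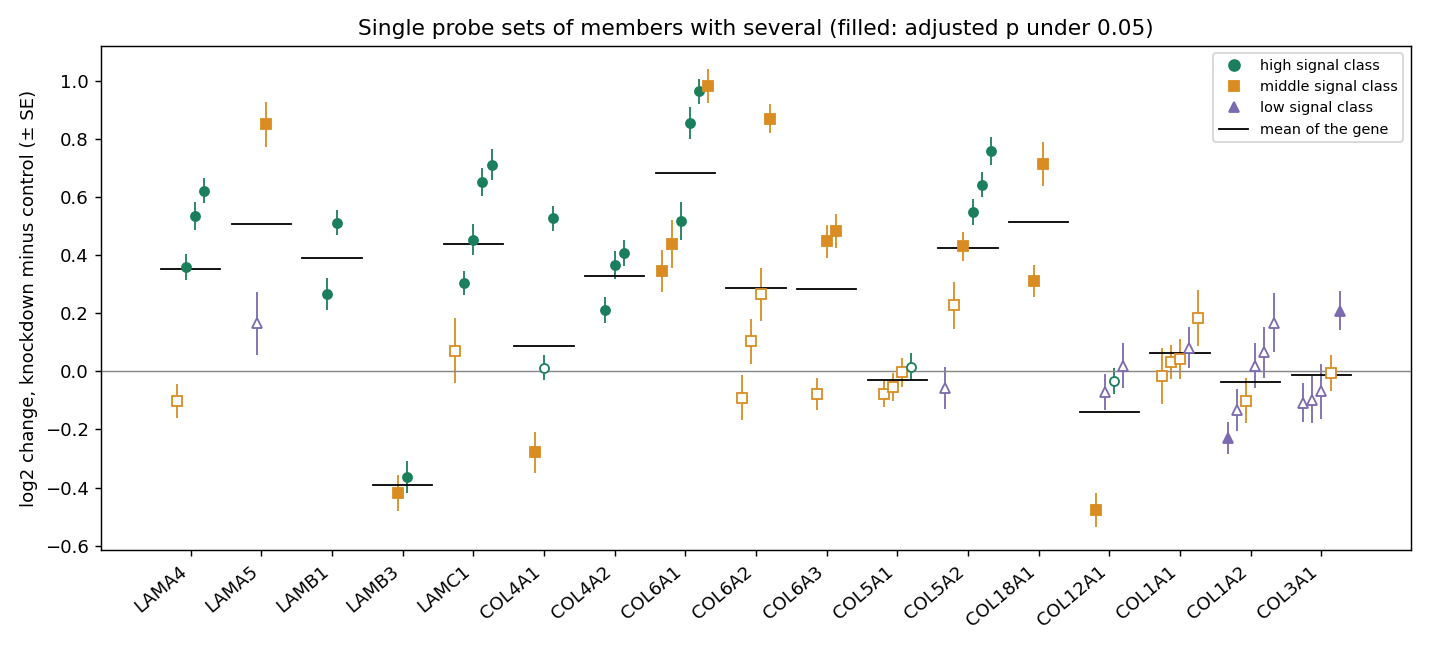
Log2 change (knockdown minus control) of single probe sets with its standard error (bars) for 17 members with several, marked by signal class, filled where the adjusted p over all probe sets is under 0.05, with a line at the gene's mean. The 6 probe sets of COL6A1 lie at 0.35 or above, while those of COL4A1 run from -0.28 to 0.53 and those of COL6A2 from -0.091 to 0.87.

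Of the 10 fibril-associated collagens 5 rose and 1 fell, beside 21.4% of all genes called higher and 18.6% lower. COL19A1, a collagen of this class found at basement membrane zones, stood at 0.29, 0.34 and 0.34 in knockdown arrays, against -0.37, -0.24 and -0.45 in control arrays. It rose by 0.67 (SE 0.056, adjusted p 3.98e-05 in limma) without overlap, and both probe sets, of the middle class, rose, by 0.65 and 0.70. COL9A1, next to it on chromosome 6, was at -0.018 and did not pass.
COL9A3, a chain of type IX collagen, stood at 0.28, 0.28 and 0.29 in knockdown arrays, against -0.28, -0.34 and -0.32 in control arrays. The spread was small, with an SD of 0.0046 in knockdown and 0.033 in control cells (n = 3 each), and the rise of 0.60 (SE 0.035, adjusted p 7.35e-06 in limma) rests on 1 highest-class probe set. COL9A2, another chain of that trimer, rose by 0.20 (adjusted p 0.00386), a call lost relative to both kinds of spike-in (0.033 with hybridization and 0.10 with poly-A spike-ins).
COL16A1 rose by 0.16 (adjusted p 0.0105 in limma) and COL22A1 by 0.12 (adjusted p 0.0349 in limma), and both were below 0 relative to the hybridization spike-ins (-0.010 and -0.045). COL22A1 was called in 1 of the 6 fits that left out an array, and without knockdown replicate 2 or 3 or any single control replicate its adjusted p was 0.0600 to 0.121. COL12A1, which coats type I fibrils, fell (-0.14, adjusted p 0.0159). Of its 4 probe sets 1, of the middle class, was called (-0.48), the highest-class one was at -0.032, and without knockdown replicate 1 or 2 or control replicate 1 the adjusted p of COL12A1 was 0.0512 to 0.0638.

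COL18A1, a collagen of basement membranes whose C-terminal fragment is endostatin, stood at 0.20, 0.21 and 0.35 in knockdown arrays, against -0.27, -0.22 and -0.29 in control arrays. It rose by 0.51 (SE 0.051, adjusted p 0.000102 in limma) without overlap, with knockdown replicate 3 as the highest array. Both probe sets rose, by 0.31 and 0.71. COL15A1, the other collagen of its class, fell (-0.19, adjusted p 0.0445) on 1 lowest-class probe set, and without knockdown replicate 2 or 3 or control replicate 1 or 3 its adjusted p was 0.0675 to 0.137.
COL7A1, which makes the anchoring fibrils that attach to the LAMB3-containing laminin of skin, stood at 0.083, 0.15 and 0.16 in knockdown arrays, against -0.083, -0.23 and -0.24 in control arrays, without overlap. It rose by 0.31 (SE 0.051, adjusted p 0.00149 in limma), opposite in sign to LAMB3, and relative to the hybridization spike-ins it was at 0.15 with an adjusted p of 0.0504. Each of the 21 called members other than COL12A1, COL15A1 and COL22A1 stayed called whichever single array was left out.
The 3 transmembrane collagens (COL13A1, COL23A1, COL25A1), the 3 short-chain network collagens (COL8A1, COL8A2, COL10A1), COL14A1, COL20A1, COL21A1, COL26A1 and COL28A1 did not pass and lay between -0.11 and 0.035. Some were called in an alternative. COL13A1 was lower relative to both spike-ins (-0.23 and -0.16), and COL8A2, COL14A1, COL20A1 and COL26A1 relative to the hybridization ones, as were 50.7% of all genes. COL8A1 was lower without lowest-class probe sets (-0.22) and COL28A1 without control replicate 2 (-0.24). COL25A1 was higher on its most variable probe set (0.21), of the lowest class.

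**Figure D4:**
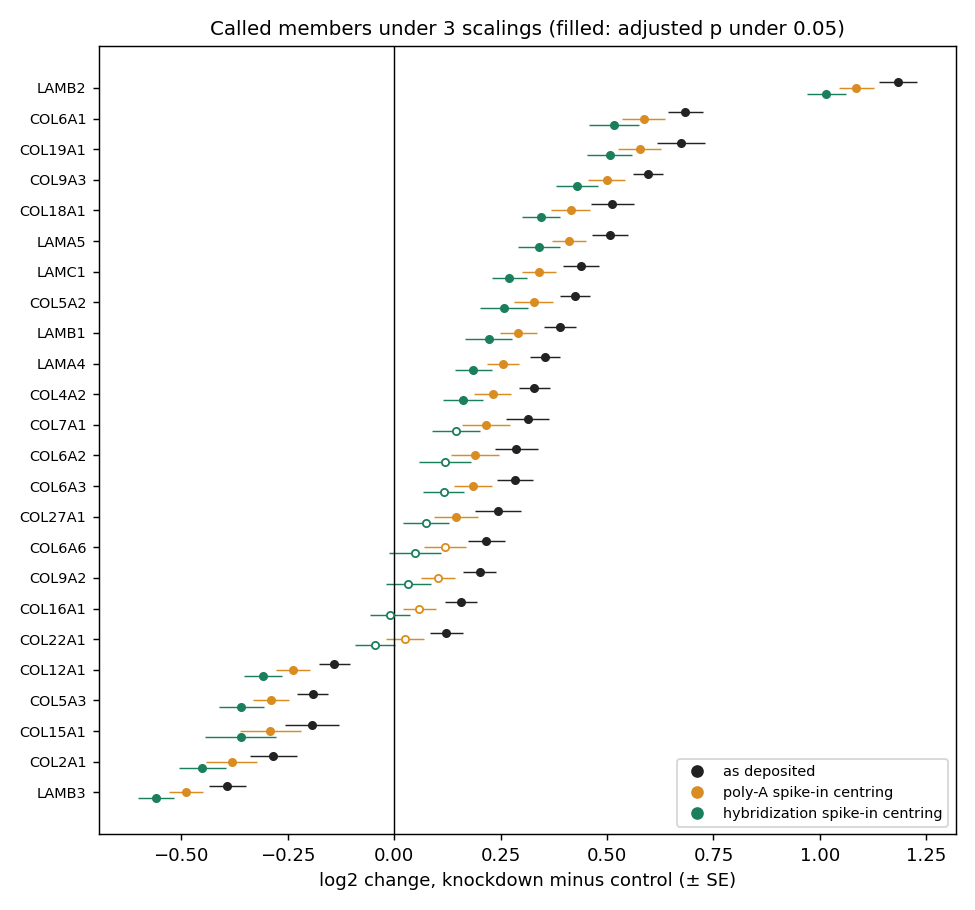
Log2 change (knockdown minus control, points) with its standard error (bars) of the 24 called members as deposited and with the arrays centred on the poly-A or on the hybridization spike-in probe sets, filled where the adjusted p is under 0.05. LAMB2 stays above 1 under all 3, and COL16A1 and COL22A1 cross 0 under the hybridization spike-ins.

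RMA, which the submitters' processing notes name, scales arrays across all transcripts, and the RNAs added to each array gave another scale. Hybridization spike-ins were 0.168 higher and poly-A spike-ins 0.0978 higher in knockdown arrays, so that relative to them the median change of all genes moved to -0.17 and -0.10. Relative to the hybridization spike-ins 9.73% of all genes were called higher and 50.7% lower, and 6 collagens rose and 14 fell, and 5 laminins rose and 3 fell. Relative to the poly-A spike-ins the shares of all genes were 13.7% higher and 34.7% lower, and 10 collagens rose and 7 fell, and 5 laminins rose and 2 fell. LAMB2, LAMA5, LAMC1, LAMB1 and LAMA4 were called higher, and LAMB3 lower, on all 3 scales.

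Genes that process collagen chains moved both ways. Of 32 measured genes of collagen maturation 14 rose and 6 fell, with a median of 0.054. That is 62.5% called, beside 40.1% of all genes, and 22 of the 32 had a highest-class probe set, a group of genes of which 57.4% were called. TMEM38B, an ion channel of the endoplasmic reticulum needed for collagen synthesis, rose by 0.86 (SE 0.047), P3H3, of the prolyl 3-hydroxylase family, by 0.66 and LOXL4, a lysyl oxidase that crosslinks matrix, by 0.63. P4HA1, a catalytic subunit of prolyl 4-hydroxylase, fell (-0.63, SE 0.053), as did its partner P4HB (-0.46) and CRTAP (-0.22), a subunit of the prolyl 3-hydroxylase complex. Chosen after their values were seen, SERPINH1, the collagen chaperone, rose by 0.53, PLOD1, a lysyl hydroxylase, by 0.57 and P4HA2, the alternative to P4HA1, by 0.21. The adjusted p-values of these 9 genes in limma were at most 0.00207. SERPINH1, PLOD1 and P4HA2 were not read singly relative to the spike-ins. The remaining genes of the list that fell were COLGALT1 (-0.19), LOXL2 (-0.19) and PPIB (-0.15). Relative to the hybridization spike-ins 8 genes of the list rose and 15 fell, beside 9.73% and 50.7% of all genes.

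Of 16 measured receptors of collagen and laminin 5 rose and 4 fell, beside 21.4% and 18.6% of all genes, with a median of -0.0041. Of the 16, 9 had a highest-class probe set. ITGA7, a laminin-binding integrin chain, rose by 1.76 (SE 0.047, adjusted p 2.61e-07 in limma) on 1 middle-class probe set. DDR1, a collagen-activated tyrosine kinase, rose by 0.47 and ITGA10, a collagen-binding integrin chain, by 0.24, the last not called relative to the hybridization spike-ins (0.073). ITGA2, the alpha chain of a collagen-binding integrin, fell (-0.60, SE 0.036), as did ADGRG1, an adhesion receptor that binds type III collagen (-0.55), and DDR2, the other collagen-activated kinase (-0.25). The probe sets of ADGRG1 ran from -1.13 to -0.054. Relative to the hybridization spike-ins, where 50.7% of all genes were lower, 2 receptors rose and 9 fell.

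Among 19 measured partners of laminin and type IV collagen in basement membranes 7 rose and 1 fell, with a median of 0.039. That is 42.1% called, near the 40.1% of all genes. FREM2, a protein of embryonic skin basement membranes, rose by 0.95 (SE 0.057), NTN4, a laminin-related netrin, by 0.60 and NID1, which links laminin to type IV collagen, by 0.48. EFEMP1, a fibulin, fell (-0.40, SE 0.054). Relative to the hybridization spike-ins 4 rose and 8 fell, again beside 9.73% and 50.7% of all genes.

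**Figure D5:**
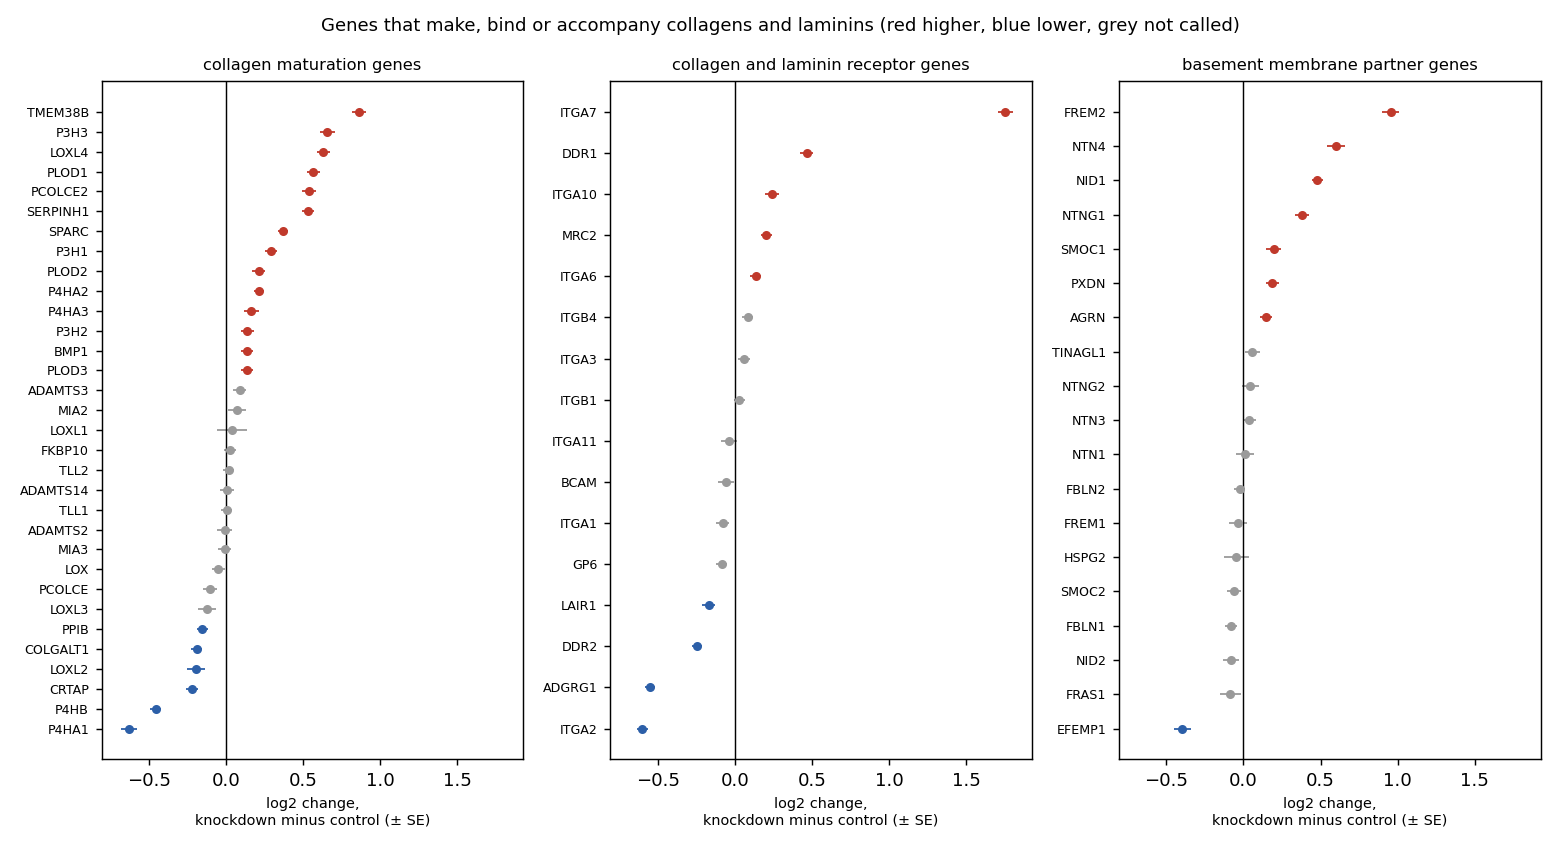
Log2 change (knockdown minus control, points) with its standard error (bars) of the genes that modify collagen, bind collagen or laminin, or accompany them in basement membranes, with red for called higher, blue for called lower and grey for not called. ITGA7 at 1.76 has the highest value and P4HA1 at -0.63 the lowest.

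Markers of other cells that make these proteins were followed as well. Their counts stand beside 21.4% of all genes called higher and 18.6% lower. Of 6 fibroblast markers 1 rose (LUM, 0.93) and 1 fell (DCN, -0.23), and their mean per array was 0.032 to 0.062 in knockdown cells and -0.096 to -0.029 in control cells. Of 5 endothelial markers 1 rose (VWF, 0.16), of 5 epithelial markers 2 fell (KRT14, -0.46, and KRT18, -0.29), and of 3 blood markers 0 passed in limma, also at an unadjusted p under 0.05. Among 4 smooth muscle and pericyte markers 1 rose and 2 fell, with a mean per array of -0.27 to -0.21 in knockdown cells and 0.24 to 0.28 in control cells, led by RGS5 at -2.03. Of 7 melanocyte lineage markers 2 rose, S100B by 1.09 and TYRP1 by 0.22, and MITF fell (-0.72). SOX10 and S100B had probe sets of the highest class, and PMEL, MLANA, TYR, TYRP1 and MITF had none. Whether a marker is absent cannot be read from centred values, and the part of these markers in the results was not tested.
The 3′ minus 5′ difference of ACTB, which depends on RNA integrity and labelling, was 0.191 higher in knockdown arrays with no overlap of the groups, while that of GAPDH was 0.0226 higher with overlap. Its part in the members' changes was not tested.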

How the data were processed

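RNA from 6 cultures was taken up in Trizol, turned into biotinylated cRNA and read on 1 Affymetrix array each, per the labels' protocols. The deposited values are log2 expression, for which the submitters' processing notes name limma, RMA and affy without version or role. RMA corrects background, equalizes the distributions of arrays and summarizes probes, so a shift of all transcripts would not show. The base of the logarithm is taken from RMA. Each probe set in the deposited log2 table is centred on the 6 arrays (largest absolute median 4.85e-07), signal over background is unknown, and the number of arrays limits precision.

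Symbols came from the platform annotation: 44988 of 49293 probe sets had 1 symbol, 1832 several and 2473 none. Gene means were fitted over 18132 genes with limma 3.58.1 (lmFit, eBayes; R 4.3.3), two-sided, without block or filter, with Benjamini-Hochberg adjustment over all genes. Signal classes come from the single-precision rounding step (tolerance 0.1 of a step). Arrays of 1 group differed with an SD of 0.125 to 0.144, so none was a copy. The members and lists were chosen with earlier results of these data known. Array values are given for the 14 called members with the largest change and a fixed set of chains, and the 3 largest called rises and falls are named in each partner list. Deviations of same-numbered arrays did not go together (correlations of -0.0191, -0.0143 and -0.0615), so numbers were not used as pairs. Alternatives changed the probe sets read, scaling, array weights, variance model, block and arrays used.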

Additional observations from a re-analysis of the deposited data

How the results depend on the processing

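Array weights, a robust variance model and centring on array medians each kept the direction and the call of all 24 called members. UBE2S was called wherever it could be read, at -2.26 to -2.05, and it has no probe set without the _s_at or _x_at suffix. With hybridization spike-in centring 6 collagens rose and 14 fell, 3 laminins fell, 8 maturation genes rose and 15 fell, 2 receptors rose and 9 fell, and 4 basement membrane partners rose and 8 fell, beside 9.73% of all genes higher and 50.7% lower. With poly-A spike-ins 7 collagens and 2 laminins fell, 9 maturation genes and 3 receptors rose, and 4 partners rose and 4 fell, beside 13.7% higher and 34.7% lower. Both scalings lower every change by construction. Reading only highest-class probe sets tests fewer genes: 6 of 12 collagens rose and 0 fell in limma (0 at an unadjusted p under 0.05), 3 of 9 receptors rose, and 3 of 6 partners rose and 0 fell (1 at an unadjusted p under 0.05), beside 32.3% of 7061 genes in each direction. Without _s_at and _x_at probe sets 2 partners fell. Leaving out 1 array gave 13 to 14 rising collagens and 2 to 5 falling ones, with 2 without knockdown replicate 2 or control replicate 1, besides 10 to 12 rising maturation genes. COL16A1 (-0.010) and COL22A1 (-0.045) reversed with hybridization spike-ins, and COL3A1 reversed to 0.21 with its largest-variance probe set; the cause was not tested. With the replicate block COL12A1 (adjusted p 0.0509) and COL22A1 (adjusted p 0.0616) lost their calls in limma, 13 collagens rose and 3 fell, 5 laminins rose and 1 fell, 11 maturation genes rose, and 6684 of all genes were called. Of 1067 comparisons of a single gene with an alternative, 950 kept direction and call, 63 changed sign without a call in either, 51 kept direction and changed call, and the 3 named above reversed.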
